A study of Mus musculus with 9 samples.

Results

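Iron, glutathione and ferroptosis genes were followed across mouse kidney and muscle by bulk RNA sequencing. The 10 genes were picked by their symbols, with earlier results of these data known: Tfrc, Fth1, Ftl1, Hmox1, Nqo1, Gclc, Gclm, Gpx3, Gpx4 and Acsl4. All 10 were found among the 24421 gene symbols that each of the 9 tables lists, and all 10 passed the filter on low counts in every comparison. The kidney libraries were 1 from a tumour-bearing animal given PBS and 1 from a wild type animal given PBS. The 7 muscle libraries were 1 each of tumour given MDC, tumour given PBS, beta-arrestin knockout given DKK1, beta-arrestin knockout given PBS and wild type given DKK1, and 2 of wild type given PBS. DKK1 is a secreted antagonist of Wnt signalling, and beta-arrestins are adaptors that bring activated receptors into endocytosis. The labels do not spell out MDC, and strain, sex, age, tumour line, muscle, dose, time and the deleted beta-arrestin gene are not stated in what was available. Nothing says whether a library is 1 animal or a pool, so every p-value measures the spread between these samples only.

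Total counts were 44421797 in tumour kidney, 42480786 in wild type kidney and 21358854 to 32607835 in muscle. Summed skeletal muscle markers came to 240.2 CPM (counts scaled to effective library size) in tumour kidney, 316.5 CPM in wild type kidney and 125091 to 382628 CPM in muscle, and summed kidney tubule markers to 14393 CPM, 28729 CPM and 7.25 to 106 CPM in the same order. The 106 CPM of tubule markers was in wild type PBS library 1, and the other muscle libraries had 7.25 to 32.2 CPM. In muscle, summed endothelial markers lay at 315.5 to 1076 CPM and fibroblast markers at 606.4 to 2040 CPM. Slow fibre markers lay at 53.5 to 6845 CPM in muscle, with 53.5 and 757.8 CPM in wild type PBS libraries 1 and 2. The names of the tables carry a set letter: A for kidney, B for both tumour muscle libraries and wild type PBS library 1, and C for both knockout libraries, wild type DKK1 and wild type PBS library 2. In muscle, tumour, MDC, DKK1 and knockout therefore each occur in 1 set, and ratios to each wild type library are given singly. Kidney and muscle share no set, so tissue and set cannot be told apart. Arrb1 had 30.7 CPM under the label knockout DKK1 and 22.3 CPM under knockout PBS, against 24.1 CPM in wild type DKK1 and 18.6 and 22.0 CPM in wild type PBS muscle. Arrb2 had 8.67 and 10.4 CPM there, against 9.05 CPM in wild type DKK1 and 8.18 and 8.52 CPM in wild type PBS muscle. Neither gene was below all the wild type muscle libraries under the knockout label with either treatment. Counts over a whole gene do not check a deletion of unknown extent, and these libraries are called labelled knockout throughout.

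Cells take up iron through the transferrin receptor (Tfrc) and store it in ferritin, a shell of heavy (Fth1) and light (Ftl1) chains. Haem oxygenase 1 (Hmox1) frees iron from haem, and the transcription factor NRF2 drives it together with the quinone reductase Nqo1 and glutamate-cysteine ligase (Gclc and Gclm), which makes the first intermediate of glutathione. Glutathione peroxidase 4 (Gpx4) uses glutathione to remove lipid peroxides from membranes, and Acsl4 loads the polyunsaturated fatty acids that are prone to such peroxidation. Ferroptosis is the iron-dependent cell death that follows when lipid peroxides build up. Gpx3 is the secreted glutathione peroxidase of blood plasma, known to be made largely by the kidney.

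Iron acts on Fth1, Ftl1 and Tfrc through iron-responsive elements, RNA hairpins bound by iron regulatory proteins when iron is scarce. Binding in the 5′ UTR blocks translation of ferritin, and binding in the 3′ UTR protects the Tfrc message from decay. The hairpins found in the 3 genes by a fixed pattern are shown because they set apart the messages whose level or translation iron is known to control. The loop is in capitals, and the sequences are from the mouse build GRCm38 (mm10) with GENCODE M21 transcripts.
Fth1, 5′ UTR, chr19:9982733-9982759, + strand: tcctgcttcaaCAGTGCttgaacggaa
Ftl1, 5′ UTR, chr7:45459780-45459806, − strand: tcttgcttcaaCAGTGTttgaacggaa
Tfrc, 3′ UTR, chr16:32631220-32631246, + strand: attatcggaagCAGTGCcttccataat
Tfrc, 3′ UTR, chr16:32631599-32631625, + strand: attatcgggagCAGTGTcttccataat
Tfrc, 3′ UTR, chr16:32631664-32631690, + strand: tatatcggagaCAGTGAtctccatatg
Tfrc, 3′ UTR, chr16:32631711-32631737, + strand: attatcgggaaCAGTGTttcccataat
The pattern searched on the transcript strand was a loop CAGTGN closed by 5 paired bases, an unpaired C before that stem, and at least 4 pairs at the 5 positions below it, 27 bases in all. It was found in 30 of 21877 protein-coding genes (0.137%) and in 3 of the 10 genes. Both ferritin hairpins paired at 4 of the 5 lower positions, and the 4 Tfrc hairpins at all 5. Among the other genes of iron uptake, storage and export, Slc40a1, the iron exporter ferroportin, held the pattern. A match describes these letters and was not tested as a binding site. A hairpin with another loop or fewer pairs would be missed, so the sites shown need not be all of a gene's hairpins.

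In the same build Tfrc lies on chromosome 16 at 32608920 to 32632794, Fth1 on chromosome 19 at 9980598 to 9985098, Ftl1 on chromosome 7 at 45457944 to 45459884 and Hmox1 on chromosome 8 at 75093621 to 75100589. Nqo1 lies on chromosome 8 at 107388225 to 107403206, Gclc on chromosome 9 at 77754535 to 77794485 and Gclm on chromosome 3 at 122245557 to 122270732. Gpx3 lies on chromosome 11 at 54902453 to 54910377, Gpx4 on chromosome 10 at 80047166 to 80056439 and Acsl4 on chromosome X at 142317993 to 142390535. Gclm overlaps Gm17494 on the opposite strand and Gm6061 on its own, and Ftl1 overlaps Gm10252 on the opposite strand and Gm22133 on its own. Their levels are uncertain to the extent that the counting, whose strand setting is unknown, shared reads among them. The ferritin genes also have many processed copies in the genome, and no other listed gene had the counts of any of the 10 in all libraries.

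Per unit of gene length, ferritin and the glutathione peroxidases stood far above the other genes in both tissues. By the authors' RPKM, counts scaled to gene length and library total, Gpx3 was the highest of all listed genes in tumour kidney at 38018 RPKM and the second highest in wild type kidney at 20639 RPKM. Fth1 ranked 7 of all genes in both kidney libraries, and Ftl1 ranked 9 in tumour kidney and 6 in wild type kidney. In each of the 7 muscle libraries Fth1 led the 10 genes, at 836.3 to 1619 RPKM and ranks 30 to 56 of all genes, followed by Ftl1, Gpx3 and Gpx4 in varying order. Tfrc, Nqo1, Gclm and Hmox1 lay between 5.16 and 57.5 RPKM in muscle, and Acsl4 and Gclc held the last 2 places in each of them.

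**Figure D1:**
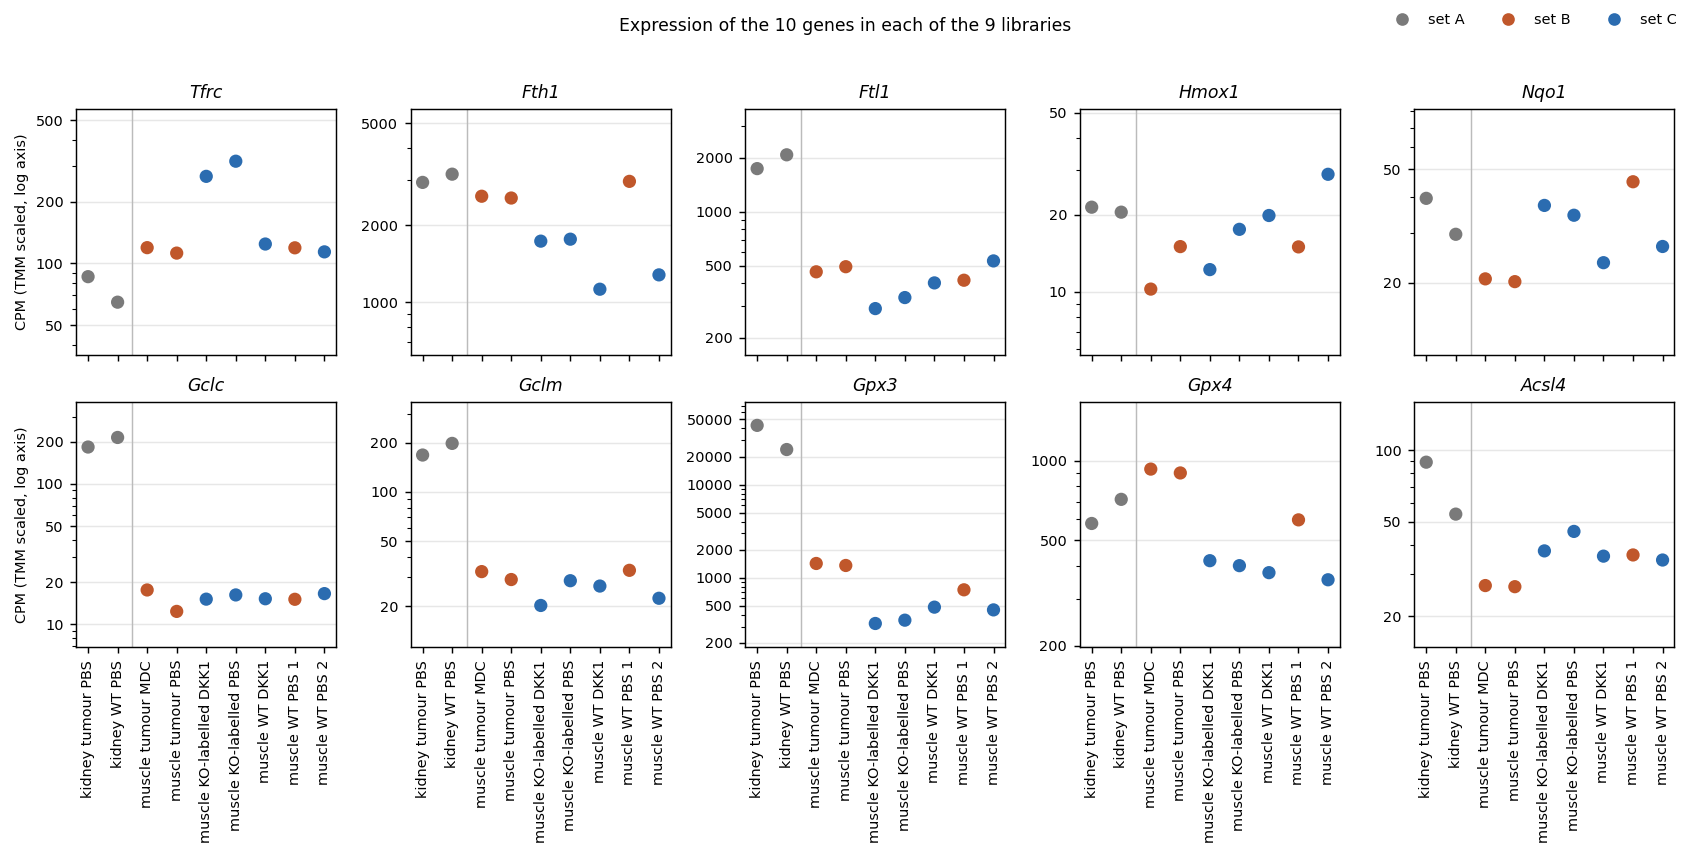
CPM of each of the 10 genes in each library (log axis, 1 point per library, coloured by set). Kidney lies left of the grey line; KO-labelled stands for the libraries labelled beta-arrestin knockout and WT for wild type. Tfrc is high in both libraries labelled knockout, and Gpx3, Gclc and Gclm are high in kidney.

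The difference between tissues was the one that reached a test. In wild type kidney against wild type PBS muscle, 3 of the 10 genes were higher by edgeR's quasi-likelihood test and 0 were lower, where the test called 15.7% of all genes (9.89% higher and 5.84% lower). The kidney side is 1 library of set A, which holds no muscle, and its spread is borrowed from the wild type muscle pair. In bulk samples fewer cells of a type and less RNA per cell cannot be told apart. Gclc had 214 CPM in wild type kidney, against 15.1 and 16.6 CPM in wild type muscle, a log2 change of 3.76 ± 0.61 (SE; edgeR adjusted p = 0.000925). Its partner Gclm had 197.6 CPM in wild type kidney, against 33.2 and 22.4 CPM in muscle (2.83 ± 0.61; edgeR adjusted p = 0.00648). Gpx3 had 23770 CPM in wild type kidney, against 742.9 and 452.3 CPM in muscle (5.31 ± 1.33; edgeR adjusted p = 0.0158). Both subunits of the glutathione-making enzyme and the plasma peroxidase thus rose in kidney, by 14.1- and 12.9-fold, 5.95- and 8.80-fold, and 32.0- and 52.5-fold over the 2 muscle libraries.

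Ftl1, at 2071 CPM in wild type kidney and 416.3 and 533 CPM in wild type muscle, missed the test (2.12 ± 0.79; edgeR adjusted p = 0.0992). It passed under DESeq2 (adjusted p = 0.00438) and when edgeR scaled by total counts alone (adjusted p = 0.0211). With it, 4 of the 10 genes met a plain size rule of 2-fold or more against each muscle library and 100 or more counts in the higher one, which 19.2% of all genes met as higher and 10.9% as lower. Fth1, Gpx4 and Acsl4 had log2 changes of 0.58 ± 1.01, 0.59 ± 0.80 and 0.61 ± 0.59. Hmox1, Nqo1 and Tfrc had −0.10 ± 0.70, −0.28 ± 0.64 and −0.85 ± 0.69. The last 6 had edgeR adjusted p of 0.502 to 0.958, and their standard errors leave differences of over 2-fold undecided at this size of design.

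**Figure D2:**
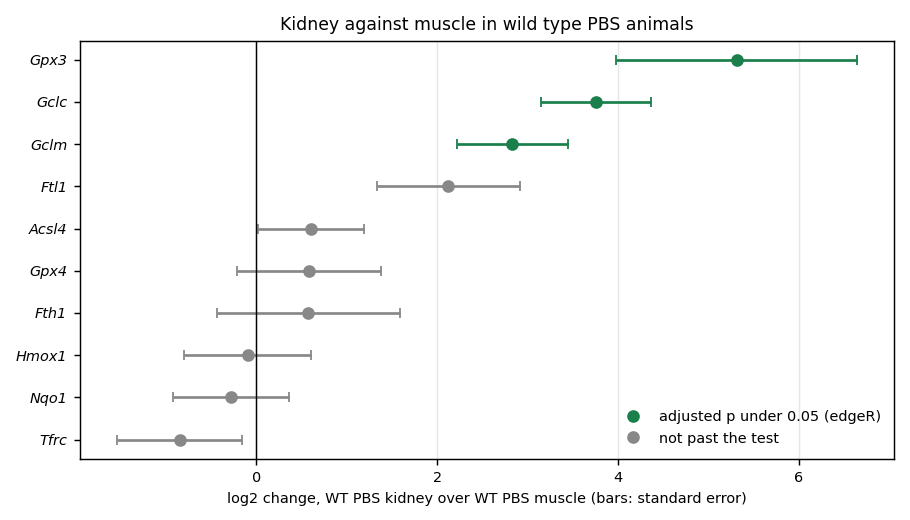
Log2 change of each gene in wild type kidney over wild type PBS muscle, with the standard error of edgeR's fit as bars (1 kidney and 2 muscle libraries). Gpx3 at 5.31, Gclc at 3.76 and Gclm at 2.83 passed the test; the other 7 did not.

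The pathway lists, some of which hold these 3 genes too, followed the tissue difference in part. Of 23 genes of glutathione synthesis and turnover, 13 were higher in kidney, Gclc and Gclm among them, and 1 was lower by edgeR. The median log2 change of the list was 2.83, against 0.00 over all genes. Ggt1, which breaks down extracellular glutathione, had 808.9 CPM in kidney, against 3.69 and 0.331 CPM in wild type PBS muscle libraries 1 and 2. Cbs, which feeds cysteine synthesis, had 209.5 CPM in kidney, against 0.858 and 0.237 CPM. Chac1, which degrades glutathione inside the cell, was the lower one, with 0.465 CPM in kidney, against 41.2 and 19.0 CPM in muscle. Among 29 peroxidase, transferase and thioredoxin genes tested, 7 were higher, Gpx3 among them, and 1 lower (median 0.26). Gpx6 and Gsta2 led the higher ones at log2 changes of 8.87 and 6.83, and Gpx7 was lower at −3.17.

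Iron genes showed no common direction between tissues: of 25, 2 were higher by edgeR, the zinc and iron importer Slc39a8 (5.44) and the iron regulatory protein gene Aco1 (3.20), and 2 lower, haemojuvelin Hfe2 (−9.29) and the ferrireductase Steap3 (−2.59), with a median of 0.44. Of 11 haem genes 1 was higher, Blvra, and 2 lower, Hp and Cd163. Hp had 3.34 CPM in kidney, against 7.22 and 249.1 CPM in wild type PBS muscle libraries 1 and 2. The size of its difference thus depends on the muscle library. NRF2 and its targets had 4 higher, Gclc and Gclm among them, and 0 lower of 23, with Gsta3 (6.52) and Gclc leading. Ferroptosis genes had 2 higher, Sat1 (3.05) and Por (2.98), and 2 lower of 32, of which Hspb1 (−5.13) led. The list of selenoprotein synthesis and selenoproteins had 4 higher and 1 lower, Sepw1 (−5.52), of 17. The receptor genes Lrp2 (9.15) and Lrp8 (6.49), which are not selenoproteins, led the higher ones. Lrp2 is also among the kidney tubule markers, so its rise in kidney adds nothing on selenoproteins.

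In muscle, edgeR called 0 of 15269 genes in each of 7 comparisons, and 33 to 213 genes had an unadjusted p under 0.05. DESeq2 called 0 to 19 genes and limma-voom 0 in the same comparisons. The size rule is therefore used for description, and it has no error rate. In muscle it was met by Tfrc in both comparisons of a library labelled knockout with wild type under the same treatment, and by no other of the 10 genes in any of the 7 comparisons.

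Tfrc, the receptor that brings transferrin-bound iron into the cell, had 266 CPM under the label knockout DKK1 and 315.2 CPM under knockout PBS, against 124.4 CPM in wild type DKK1 and 119.2 and 113.9 CPM in wild type PBS muscle. The tumour MDC and tumour PBS libraries had 119.5 and 112.4 CPM. Thus 5 muscle libraries from both sets lay within 112 to 124 CPM, and both libraries labelled knockout lay above all of them. The narrow band depends on TMM scaling. As a share of all counts, Tfrc ran from 0.00870% in wild type PBS library 1 to 0.0147% in wild type DKK1 among these 5. It was 0.0261% and 0.0282% under the labels knockout DKK1 and knockout PBS. Under PBS the ratio was 2.64 and 2.77 to the 2 wild type libraries (log2 change 1.43 ± 0.64; unadjusted p = 0.0422, edgeR adjusted p = 1). The size rule was met as higher by 0.537% and as lower by 0.432% of all genes in that comparison. Under DKK1 the ratio was 2.14 (1.10 ± 0.78; edgeR adjusted p = 1), where 2.02% of genes met the rule as higher and 7.62% as lower. Scaling by total counts alone ended the second of these calls, at a log2 change of 0.83.

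The other 3 genes whose libraries labelled knockout lay outside the range of the other 5 muscle libraries did so by less. Ftl1 was at 289.7 CPM in knockout DKK1 and 333.6 CPM in knockout PBS, against 402.3 to 533 CPM in the other 5. Gpx3 was at 323.3 and 350.8 CPM, against 452.3 to 1424 CPM. Acsl4 was at 37.7 and 45.5 CPM, against 26.6 to 36.2 CPM. With Tfrc that is 4 of 10 genes, 2 higher and 2 lower, where 9.47% of all genes lay above the other 5 libraries and 8.63% below. Both libraries labelled knockout belong to set C, as do wild type DKK1 and wild type PBS library 2. Lying outside the other 5 already covers them, so the order within set C is no separate check.

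The ferritin chains did not move together. Fth1 was at 1731 and 1761 CPM in the libraries labelled knockout DKK1 and knockout PBS, against 1123 CPM in wild type DKK1 and 2964 and 1278 CPM in wild type PBS libraries 1 and 2. It lay above both set C wild type libraries and below the set B one, so the direction depends on which library is the reference. The ratio of Fth1 to Ftl1 RPKM was 3.83 and 3.39 in the libraries labelled knockout DKK1 and PBS, against 1.79 in wild type DKK1 and 4.57 and 1.54 in wild type PBS muscle. It was 3.59 in tumour MDC and 3.31 in tumour PBS muscle, and near parity in kidney at 1.09 with a tumour and 0.980 in wild type. All 7 muscle libraries had more of the heavy chain per length, and the wild type PBS pair held both the lowest and the highest of these ratios.

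**Figure D3:**
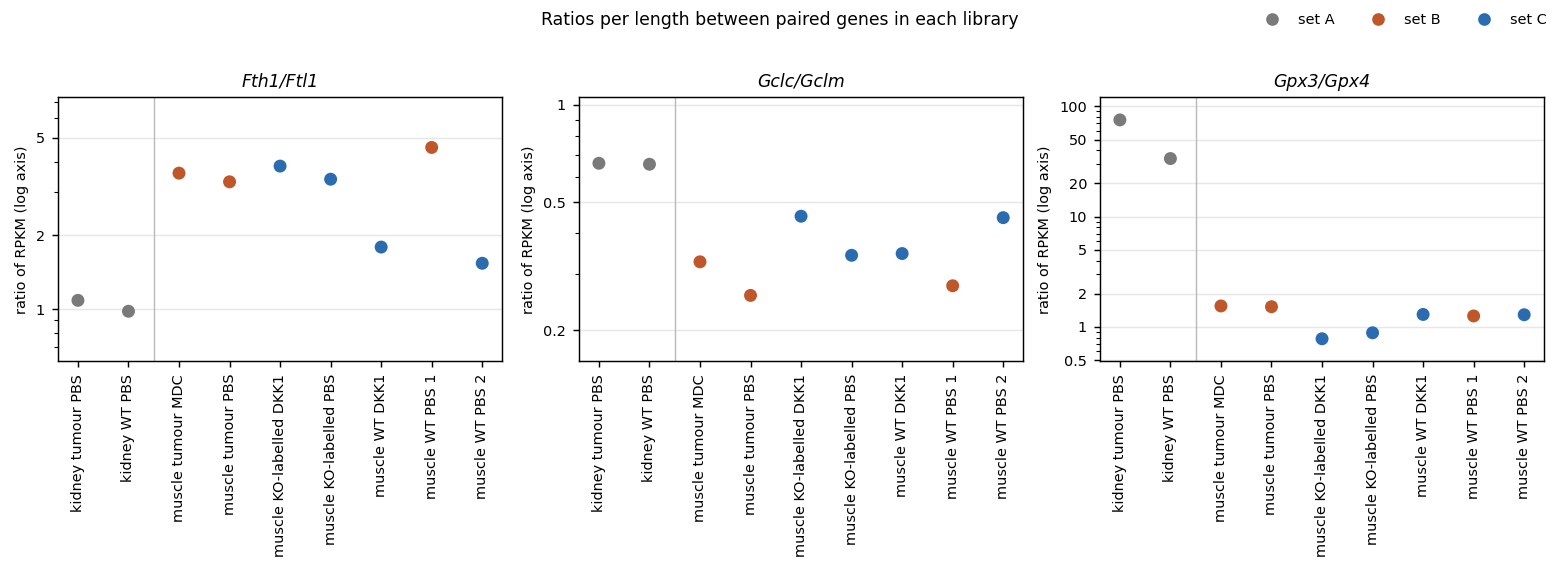
Ratio of RPKM between paired genes in each library (log axis, 1 point per library, coloured by set). Fth1 over Ftl1 is 1.09 in tumour and 0.980 in wild type kidney and 1.54 to 4.57 in muscle, Gclc over Gclm is 0.660 and 0.655 in kidney, and Gpx3 over Gpx4 is 75.4 and 33.6 in kidney and 0.780 to 1.55 in muscle.

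Around Tfrc, 22 of the 25 iron genes had 100 or more counts in at least 1 of the muscle libraries without a tumour. The 3 ratios were those of a library labelled knockout to a wild type library under the same treatment. Of the 22 genes, 7 were above wild type in all 3 ratios, Tfrc itself among them. Below in all 3 were 5, Ftl1 among them, and 10 were mixed, with Fth1. Over 11762 genes with as many counts, 19.5% were above in all 3 and 18.8% below, so these counts of a short list are given as a description. Slc40a1, the exporter that carries the same hairpin in its message, was at 44.2 and 59.0 CPM under the knockout label with DKK1 and PBS, against 31.7 CPM in wild type DKK1 and 22.3 and 31.9 CPM in wild type PBS. Hfe, whose product binds the transferrin receptor, was at 32.6 and 34.0 CPM, against 20.0 CPM in wild type DKK1 and 13.6 and 23.1 CPM in wild type PBS. Ceruloplasmin (Cp), the ferroxidase that works with ferroportin, was at 11.8 and 5.46 CPM, against 28.8 CPM in wild type DKK1 and 9.29 and 15.6 CPM in wild type PBS.

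**Figure D4:**
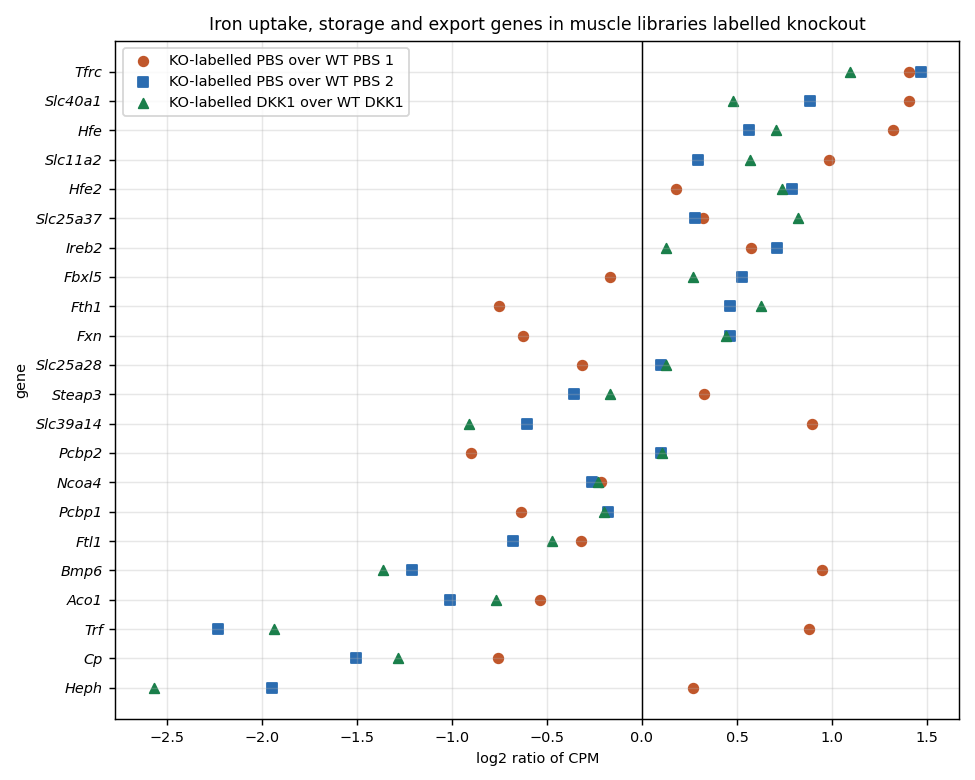
Log2 ratio of CPM for the 22 iron genes with enough counts, in the library labelled knockout PBS over each wild type PBS library and in the library labelled knockout DKK1 over wild type DKK1 (1 point per ratio). Tfrc, at 1.10 to 1.47, has the highest mean of the 3 ratios, and Trf, Heph and Bmp6 change side with the wild type library used.

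Some pathway genes beyond the 10 met the size rule under the knockout label. Under PBS they were Chac1, at 130.4 CPM against 41.2 and 19.0 CPM in wild type, and Acsl3, which activates monounsaturated fatty acids, at 68.7 CPM against 17.3 and 23.5 CPM. Medians of the 7 lists lay between −0.37 and −0.10, against −0.10 over all genes. Under DKK1, Chac1 (105.6 CPM, against 28.3 CPM in wild type) and the NADPH source Me1 (393.2 and 153.8 CPM) met it as higher. As lower it was met by 4 iron genes led by Heph and Trf, by Hp, by Slc1a5 and Ggt5, by Gpx8, by Tkt, and by 4 ferroptosis genes led by Scd1 and Hspb1. Summed adipocyte markers moved with these, at 413.6 CPM in knockout DKK1 and 414.9 CPM in knockout PBS, against 1636 CPM in wild type DKK1 and 639.1 and 2021 CPM in wild type PBS. Hp and Scd1 were at 2.87 and 85.9 CPM in knockout DKK1, against 77.6 and 1090 CPM in wild type DKK1. In knockout DKK1 and wild type DKK1 muscle, endothelial markers were at 362.7 and 1076 CPM, fibroblast markers at 952.3 and 2040 CPM and slow fibre markers at 6845 and 900.2 CPM. The part of these cell types was not tested. Medians of the 7 lists lay between −0.28 and −0.02, against −0.01 over all genes.

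In tumour muscle the peroxidases Gpx3 and Gpx4 were at their highest, though neither met the size rule. Gpx3 was at 1424 CPM with MDC and 1355 CPM with PBS, against 742.9 and 452.3 CPM in wild type. Gpx4 was at 930.1 and 899.3 CPM, against 597.8 and 354.8 CPM. Both tumour libraries lay above all 5 other muscle libraries for these 2 genes, and the wild type library of set B was the next highest. The share of all genes with both tumour libraries above or below the other 5 was not counted, so such positions are a description. Against that library the tumour PBS ratio was 1.82 for Gpx3 and 1.5 for Gpx4, and against the set C library it was 3.0 and 2.53. The set B wild type library also had the highest summed kidney tubule markers in muscle (106 CPM), and Gpx3 is high in kidney. The part of this signal in its Gpx3 value was not tested. The edgeR log2 changes were 1.18 ± 0.77 and 0.92 ± 0.76 for tumour PBS, each with an adjusted p of 1. None of the 10 genes met the size rule against both wild type libraries, where 0.989% of all genes did so as higher and 0.295% as lower with PBS, and 0.504% and 0.478% with MDC.

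The set letter moves with this result. Gpx4, Gpx3, Fth1 and, by a small margin, Gclm were higher in all 3 set B muscle libraries than in all 4 of set C. Of all genes 17.7% were higher in this way, while 15.2% were lower. Tumour and set cannot be told apart here beyond the 1 wild type library of set B. Neutrophil markers were at 51.5 CPM in tumour MDC and 405.5 CPM in tumour PBS muscle, against 16.0 and 11.8 CPM in wild type PBS, and erythroid markers at 4318 and 2426 CPM, against 786.1 and 660.7 CPM, and their part was not tested.

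Nqo1, which detoxifies quinones, had its lowest values in the tumour libraries, at 20.7 CPM with MDC and 20.2 CPM with PBS, against 45.2 and 26.8 CPM in wild type PBS. Acsl4 was lowest there too, at 26.9 and 26.6 CPM, against 36.2 and 34.5 CPM. Gclm, at 32.6 and 29.1 CPM, stayed within the range of the other muscle libraries. Beyond the 10, Cp (35.0 CPM, against 9.29 and 15.6 CPM), Chac1 (102.3 CPM, against 41.2 and 19.0 CPM) and Acsl3 (61.0 CPM, against 17.3 and 23.5 CPM) met the rule as higher in tumour PBS muscle, and list medians ran over −0.16 to 0.06, against −0.03 over all genes. In tumour MDC muscle Ggt5 met it as higher (10.3 CPM, against a wild type mean of 4.60 CPM) and Hfe as lower (5.73 and 18.3 CPM), with list medians of −0.27 to 0.23, against −0.04 over all genes.

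MDC against PBS in tumour muscle left the 10 genes within a narrow band. Ratios ran over 0.684 for Hmox1 to 1.42 for Gclc, and none met the size rule, which 0.812% of all genes met as higher and 2.44% as lower. Hmox1 was at 10.3 CPM with MDC and 15.0 CPM with PBS, and Gclc at 17.6 and 12.4 CPM. Gpx4, Gpx3, Tfrc, Fth1, Nqo1 and Acsl4 had log2 ratios of 0.02 to 0.09. Hpx, which binds free haem, met the rule as higher (5.45 and 1.57 CPM), and Cp (17.0 and 35.0 CPM), Hp (20.4 and 71.3 CPM), Chac1 (46.0 and 102.3 CPM) and Scd1 (58.5 and 151.4 CPM) as lower. Medians of the lists were −0.39, for haem genes, to 0.16, for glutathione genes, against −0.01 over all genes. Slow fibre markers were at 1628 CPM with MDC and 272.6 CPM with PBS, and their part was not tested.

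Hmox1 in muscle was lowest in tumour MDC, at 10.3 CPM, and highest in wild type PBS library 2. It was at 12.2 and 17.6 CPM in the libraries labelled knockout DKK1 and PBS and 19.9 CPM in wild type DKK1, against 15.0 and 28.8 CPM in wild type PBS libraries 1 and 2. The wild type PBS pair differed 1.92-fold, and the tumour MDC and knockout DKK1 libraries lay below both of them. Macrophages are rich in this enzyme, and the summed macrophage markers were at 187.6 CPM in tumour MDC, 358.7 CPM in tumour PBS, 279.2 CPM in knockout DKK1, 418.1 CPM in knockout PBS, 406.6 CPM in wild type DKK1 and 114.4 and 767.9 CPM in wild type PBS muscle. Their part in the Hmox1 values was not tested.

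DKK1 in wild type muscle left all 10 genes short of the size rule, which 1.81% of all genes met as higher and 0.183% as lower. Fth1 was at 1123 CPM with DKK1, against 2964 CPM in library 1 and 1278 CPM in library 2 with PBS, ratios of 0.379 and 0.879. Nqo1 was at 23.6 CPM, against 45.2 and 26.8 CPM. For both, the gap to wild type PBS library 2 of the same set was small and most of the difference came with library 1. Dpep1, a dipeptidase of glutathione breakdown (40.8 CPM, against 6.06 and 19.6 CPM), and Alox12, a lipoxygenase (3.31 CPM, against 0.808 and 1.56 CPM), met the rule as higher. The lists had medians of −0.34 to 0.01, against −0.03 over all genes.

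Under the knockout label, DKK1 against PBS gave ratios of 0.698 for Hmox1 to 1.08 for Nqo1. None of the 10 met the rule, which 1.57% of all genes met as higher and 0.491% as lower. Cp (11.8 and 5.46 CPM) and the haemoglobin scavenger receptor Cd163 (19.8 and 9.14 CPM) met it as higher, and list medians lay at −0.12 to 0.07, against −0.01 over all genes. Slow fibre markers were at 6845 CPM in the DKK1 library and 152.3 CPM in the PBS library. The wild type PBS pair itself held 53.5 and 757.8 CPM of them, and their part was not tested. The interaction test asked whether the DKK1 difference was itself different under the knockout label: edgeR called 0 genes (39 had an unadjusted p under 0.05), and DESeq2 called 3. For Tfrc the interaction was −0.34 ± 1.02 and for Fth1 0.89 ± 1.45 on the log2 scale.

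**Figure D5:**
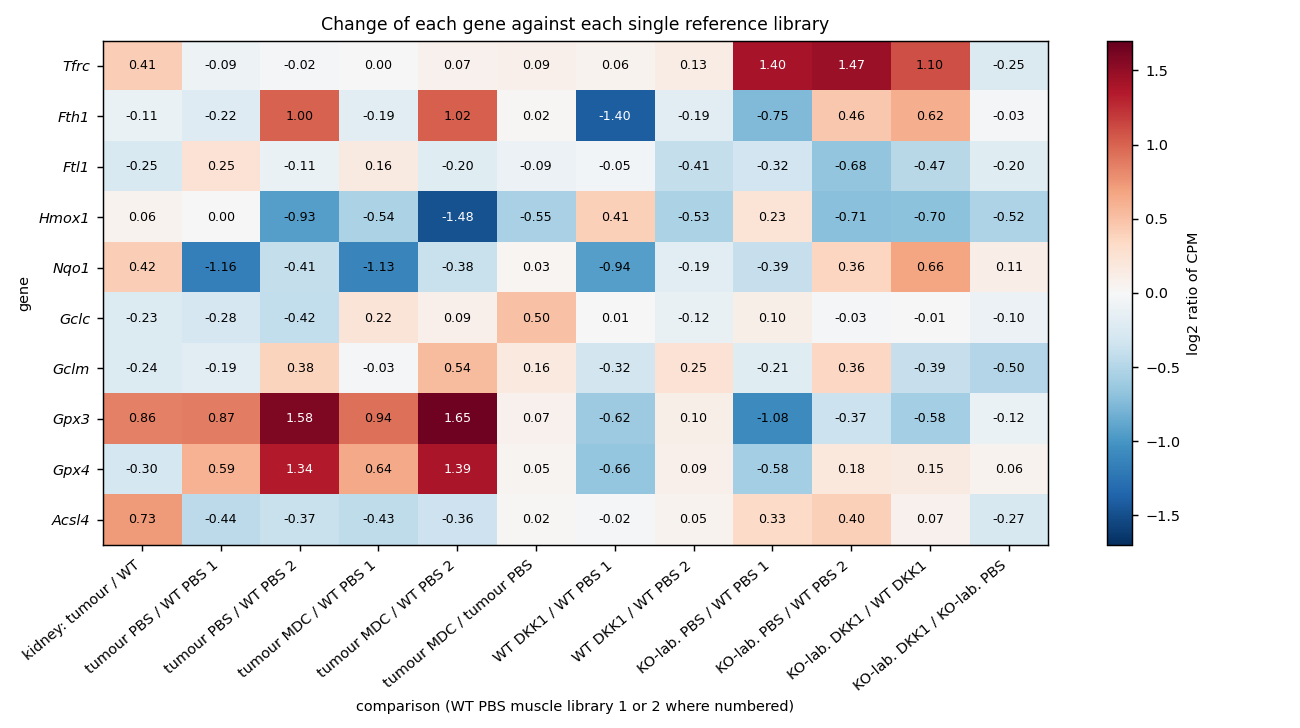
Log2 ratio of CPM of each gene in each comparison, against each wild type PBS muscle library separately where that pair is the reference. Red is higher and blue lower in the first-named library, and KO-lab. stands for labelled knockout. Tfrc is at 1.40 and 1.47 against the 2 wild type PBS libraries, and for Fth1 the 2 wild type libraries give ratios of opposite sign in the tumour and knockout PBS columns.

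In kidney, where each group is 1 library and no test between the 2 was made, none of the 10 genes reached 2-fold with a tumour. The rule was met as higher by 4.52% and as lower by 3.28% of all genes. Gpx3 was at 43174 CPM in tumour kidney and 23770 CPM in wild type kidney, a ratio of 1.82 (95% interval 1.81 to 1.82 for counting error only). It took 5.77% of all counts in tumour kidney and 3.13% in wild type kidney. Acsl4, at 89.1 and 53.9 CPM, had a ratio of 1.65 (1.58 to 1.73).

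Both glutathione-making subunits were slightly lower in tumour kidney, Gclc at 183 CPM against 214 CPM (ratio 0.855, 0.833 to 0.878) and Gclm at 167.7 CPM against 197.6 CPM (0.849, 0.826 to 0.872). The ratio of Gclc to Gclm RPKM was 0.660 in tumour kidney and 0.655 in wild type kidney, and 0.257 to 0.452 in muscle. Fth1, Ftl1 and Gpx4 had ratios of 0.929, 0.838 and 0.811, and Nqo1, Tfrc and Hmox1 of 1.34, 1.33 and 1.05. The intervals hold counting error and not the difference between animals. In a fit over all 9 libraries, edgeR's test of whether the tumour difference differed between kidney and muscle called 0 genes, and 126 had an unadjusted p under 0.05. For Gpx4 it gave −1.22 ± 1.24 and for Acsl4 1.14 ± 0.93.

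Other genes of the same pathways moved further than the 10 in kidney. Of 25 iron genes, 5 met the rule as higher and 0 as lower (median 0.12, against −0.01 over all genes), with Tfr2 at 14.1 CPM in tumour kidney and 0.608 CPM in wild type kidney and transferrin (Trf) at 58.6 and 12.4 CPM. Of 11 haem genes 3 were higher (median 0.49), led by Hp at 99.3 and 3.34 CPM and Mfsd7c at 19.9 and 6.74 CPM. Of 22 glutathione genes 4 were lower and 1 higher (median −0.45), with Ggt1 at 287.5 and 808.9 CPM, Ggct at 5.46 and 22.9 CPM and Slc1a5 at 73.8 and 22.9 CPM. Summed kidney tubule markers were at 14393 CPM in tumour kidney and 28729 CPM in wild type kidney. Neutrophil markers were at 74.7 and 3.79 CPM, erythroid markers at 1492 and 401.8 CPM and adipocyte markers at 4095 and 2695 CPM in tumour and wild type kidney, and the part of these cell types was not tested. Peroxidase and transferase genes had 5 higher of 29, with Gpx8 at 24.4 and 7.11 CPM and Gstm5 at 185.1 and 71.9 CPM. Of 30 ferroptosis genes 5 were higher, with Ptgs2 at 5.53 and 0.286 CPM and Hspb1 at 37.8 and 12.7 CPM, and of 22 NRF2 genes 2 were lower, Me1 (379.2 and 838.8 CPM) and Mafg (13.2 and 28.5 CPM). Among 17 genes listed for selenoprotein synthesis and selenoproteins, the receptor gene Lrp8 was lower at 3.34 and 6.86 CPM.

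Among 11927 genes with 100 or more counts in a muscle library, those whose log2 CPM ran most like each of the 10 over the 7 muscle libraries were found by Pearson's r, as a description of libraries that share sets. Acp1 (0.99) was such a gene for Tfrc, Lage3 (0.99) and Lsm10 (0.99) were for Fth1, and for Ftl1 they were Plk3 (0.97) and Eif4a1 (0.95). Gpx4 had Triobp and A230050P20Rik (0.99 each), Gpx3 had Gm12992 and Zfp706 (0.99 each), and Acsl4 had Efcab14 (0.99) and Ublcp1 (0.98). Hmox1 had Scamp5 (0.99) and Mecr (0.98), Nqo1 had Samm50 (1.00) and Nlrx1 (0.99), Gclm had Eif2ak2 and Adck5 (0.97 each), and Gclc had Fbrsl1 (0.94) and Elac1 (0.92). None of the 10 is among these genes. Gclc, whose muscle values span 1.42-fold, had the lowest of these values.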

How the data were processed

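RNA-seq tables of 9 mouse libraries were used, 1 per library. Each deposited table gives read counts per gene without normalisation, the gene's length, and RPKM that the authors derived from both. Per the submitters' processing notes, reads were aligned with HISAT2 2.1.0 to mm10. The counting program, annotation and strand setting were not stated in these notes, the labels or the tables. Counts were scaled by TMM over all 9 libraries, and log2 CPM used a prior count of 2.

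Genes passing filterByExpr (minimum count 10) were tested with edgeR 4.0.16 in R 4.3.3 by the quasi-likelihood test with 1 coefficient per group and Benjamini-Hochberg adjustment at 0.05: 15269 genes over the 7 muscle libraries and 16711 over all 9. The wild type PBS muscle pair gives the only residual degree of freedom, 1 in each fit, and empirical Bayes added 13.6 in the muscle fit. Single libraries are thus assumed to vary like that pair, whose biological coefficient of variation was 0.498. The pair is 1 library of set B and 1 of set C, so its spread holds any difference between sets. That spread is also used for comparisons within 1 set. In kidney, ratios for 15986 genes carry exact conditional binomial 95% intervals, which cover counting error only. The size rule asked for a ratio of at least 2-fold with at least 100 counts in the higher library, against each wild type PBS library where that pair was the reference. The method was tried only on simulated data with less spread than these libraries, so its power here is not known. Comparisons with wild type PBS muscle share its 2 libraries.

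The 10 genes, the 7 pathway lists and the 9 marker lists were chosen with earlier results of these data known. All 10 genes were named in every comparison, and from each list up to 2 genes in each direction with the largest mean log2 change past the size rule, plus Arrb1, Arrb2 and the 2 genes most like each of the 10, of which 1 is not reported here. Cp, Slc40a1, Hfe and the genes on the plot of iron genes were described further after their values were seen. List symbols were matched through RefSeq synonyms. Alternatives were DESeq2 1.42.0, limma-voom (limma 3.58.1), DESeq2 size factors, total counts, no filter on low counts, a 1.5-fold rule, no minimum count, each wild type PBS library left out, and, added after seeing the data, TMM within each tissue and Gpx3 left out before scaling in kidney. RPKM served for levels per length and for ratios between genes.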

Additional observations from a re-analysis of the deposited data

How the results depend on the processing

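The 3 tissue calls (Gpx3, Gclc, Gclm) kept their direction and their side of the threshold under every alternative that gives a test, and their direction without either wild type library. No called value changed sign. Among 0 calls over all genes in muscle, total counts gave 3 for tumour PBS and 1 for knockout PBS against wild type. Without the filter on low counts edgeR called 28 genes for tumour PBS, 36 for tumour MDC, 18 for wild type DKK1 and 39 for knockout PBS against wild type PBS, 11 for knockout DKK1 against knockout PBS, 24 for knockout DKK1 against wild type DKK1 and 16 for the interaction. DESeq2 called 12, 11, 4 and 19 in the first 4, and 6 and 3 in the last 2 of these.

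Of the 10 genes, total counts put 1 past the size rule for tumour PBS and 1 for tumour MDC against wild type, and 0 for knockout DKK1 against wild type DKK1. A 1.5-fold rule gave 2 for tumour PBS, 2 for tumour MDC, 4 for knockout DKK1 against wild type DKK1 and 2 in kidney. Without wild type PBS library 1, 2 met the rule for tumour PBS, 4 for tumour MDC, 0 for wild type DKK1 and 1 for knockout PBS, and without library 2 there were 1, 1, 1 and 2. Shares of all genes under these altered settings are not given here, so the counts describe the 10 genes only. Leaving either wild type library out leaves no test. The cause was not tested. Total counts put the median log2 ratio of all genes at up to 0.48 in muscle (wild type DKK1) and 0.70 between tissues, against 0.01 and 0.09 with TMM, and turned the sign of 25 of 100 uncalled log2 values of the 10 genes, the largest at 0.34. Leaving out wild type library 1 or 2 turned 13 of 90 each.

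No paired analysis was possible because the groups share fewer than 2 replicate numbers and no label ties libraries to a common animal. With a residual degree of freedom of 1, a gene missing the test in muscle is not shown to be alike between groups.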
